A study of Populus tremula x Populus alba with 10 samples.

Results

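The 100 genes described here were chosen for higher levels in stem nuclei that held the gene PtXaAlbH.12G066100 than in other nuclei. That gene is called the anchor below, and 31823 genes were measured in hybrid poplar. An anchor-positive nucleus was a nucleus with at least 1 unique molecular identifier (UMI, the tag that marks 1 captured RNA molecule) of the anchor. The members were chosen by their measured levels in the nuclei. For each gene, the log2 ratio of its CPM (its counts scaled to a common library total, with 50 added) in anchor-positive nuclei over the other nuclei was taken in each treatment, and the lower of both ratios was kept. Members were the 100 genes with the highest such ratio among those with at least 30 UMIs in anchor-positive nuclei and a ratio above the one for each of 6 other anchor genes. The ratios that chose the genes are given as a description only. No gene names come with the IDs, so genes are given by ID, and no cell type is named.

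A woody stem holds many kinds of cells. The cambium, a thin layer of dividing cells, gives xylem towards the inside and phloem towards the outside, with bark tissues beyond it, and xylem carries water while phloem carries sugars. Drought slows growth from the cambium and changes gene expression throughout the stem. In single-nucleus sequencing, genes that are active in the same kind of cell tend to be detected in the same nuclei, whereas RNA set free when nuclei are prepared can place a few UMIs of any abundant gene in any nucleus.

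The plants were Populus tremula x alba, INRA clone 717 1B4, wild type, so all libraries share 1 genotype. They were raised in vitro and grown in peat for 6 weeks. Drought plants had water withheld until the soil held 15% of field capacity, the water a soil keeps after draining, and stayed at that level for 14 days. Control plants were kept near field capacity, with soil moisture around 0.46 m3/m3. Nuclei came from 2 drought and 2 control libraries, each from 1 plant, and from the 15th internode in the sample labels or internodes 14 and 15 in the series' text. Bulk libraries, of total RNA from the stem, were 3 drought and 3 control.

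The bulk libraries held 47900128 to 57594846 counts and the nuclei libraries 1930997 to 4346198 gene UMIs. Barcodes with at least 200 genes, called nuclei here, numbered 16950 of 20406, and made up 75.5% and 61.6% of barcodes in the drought libraries against 97.8% and 100.0% in the control libraries. Bulk drought library 2 stood apart. The chi-square per degree of freedom between its counts and those of the other drought libraries was 135 and 163, against 10.3 between those libraries and 14.7 to 29.6 between control libraries. The bulk counts by list and set, and each bulk value it moves past the threshold or by over 1.5 times, are therefore also given without it. Any pair of nuclei libraries shared 18 to 56 barcodes, and 200 nuclei, 4 of them anchor-positive, carried a barcode found in another library.

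The anchor was detected in few nuclei, mostly as a single UMI. Of the 16950 nuclei, 279 (1.65%) had at least 1 UMI of it, 204 of them exactly 1 and 75 of them 2 or more. The share was 1.17% and 1.39% in the drought libraries (95% Wilson intervals 0.847% to 1.60% and 1.06% to 1.82%), against 2.30% and 1.58% in the control libraries (1.90% to 2.79% and 1.29% to 1.94%). These intervals cover counting error only. The drought mean was 1.28% ± 0.159 and the control mean 1.94% ± 0.511 (SD, n = 2 each), a difference that an exact two-sided permutation test gave p = 0.333, the smallest p that 2 against 2 libraries can reach. Nuclei were shallower under drought, with median UMIs of 515 and 471.5 in anchor-positive nuclei of the drought libraries and 987.5 and 656 in those of the control libraries. After each nucleus was thinned to 300 UMIs, which left out 686 and 1227 drought nuclei and 71 and 753 control nuclei, the shares were 1.01% and 1.15% in drought libraries against 1.08% and 1.05% in control libraries.

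Nuclei with at least 1 UMI of the anchor were also found among those with each of the 6 other anchors. Among nuclei with a UMI of 1 of the 6 other anchors, 0.312% to 2.82% also had the anchor, at median depths of 560 to 848 UMIs, against 678 UMIs in anchor-positive nuclei. The 1.65% over all nuclei lies inside that range and is not read as expression. Of the 279 anchor-positive nuclei, 63 (22.6%) also had a UMI of at least 1 of the other anchors.

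In whole libraries the anchor did not pass the test in either assay. In bulk it had 268, 312 and 291 CPM under drought against 322, 375 and 315 CPM in controls. Every drought value lay below every control value, with means of 290 ± 22.1 CPM under drought and 337 ± 32.7 CPM in controls (SD, n = 3 each). The log2 fold change after TMM scaling was -0.09 (SE 0.11, edgeR adjusted p = 0.50). In nuclei it had 47.6 and 87.2 CPM under drought against 45.6 and 44.0 CPM in controls, with a log2 fold change of 0.56 (SE 0.28, edgeR adjusted p = 0.248). Drought library 1 was close to the controls, and drought library 2 was the high one.

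The ratios that chose the members ran from 0.76 to 3.34 on the log2 scale, with a median of 1.36. They exceeded 1 for 78 members and 2 for 20, and 648 genes met the other conditions of the rule. Members had 30 to 393 UMIs in anchor-positive nuclei, with a median of 52.5, so counting error is large for many. In all 4 libraries taken singly, 99 members had a higher CPM in anchor-positive than in other nuclei, and PtXaAlbH.18G004300 had it in 3. The highest ratio of a member for any of the other 6 anchors had a median of -0.02 and exceeded 0.5 for 3 members. The last members taken were PtXaAlbH.08G046100 at 0.77 and PtXaAlbH.01G307100 at 0.76, and the first genes left out were PtXaAlbH.17G012500 at 0.75 and PtXaAlbH.04G027900 at 0.72.

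The leading member, PtXaAlbH.01G281400, had 2652 and 3783 CPM in anchor-positive nuclei of the drought libraries, against 637 and 887 CPM in those of the control libraries. In the other nuclei it had 29.4 and 34.3 CPM under drought and 25.4 and 27.6 CPM in controls. It was thus near the same low level in nuclei without the anchor in all 4 libraries. PtXaAlbH.05G155600 had 2170 and 1513 CPM in anchor-positive drought nuclei, against 833 and 1146 CPM in anchor-positive control nuclei. PtXaAlbH.02G051200 had 2984 and 1373 CPM in anchor-positive drought nuclei, against 585 and 1269 CPM in anchor-positive control nuclei. Its drought libraries differed from each other more than drought library 2 did from control library 2. The other leading members were PtXaAlbH.14G144800, PtXaAlbH.01G281200 and PtXaAlbH.17G051000, with ratios of 2.81, 2.76 and 2.70. The ratio was higher under drought than in controls for 86 members and lower for 14, with medians of 2.24 under drought and 1.43 in controls. Because the rule keeps the lower of both ratios, these counts are a description of the choice.

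**Figure D1:**
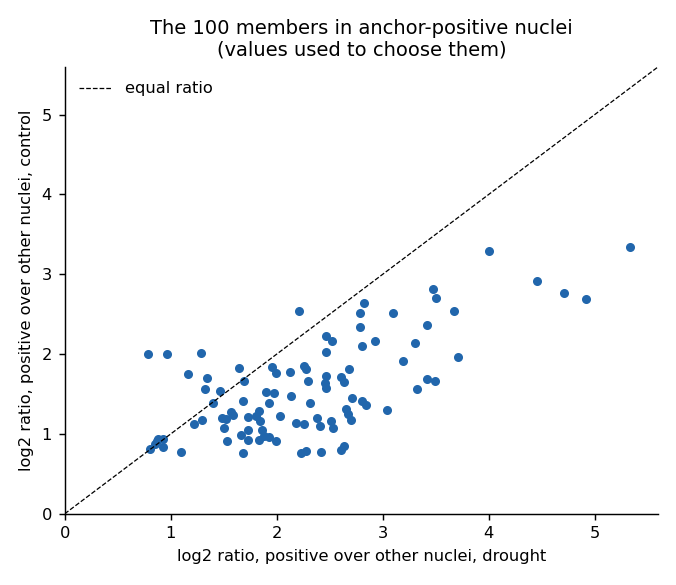
Log2 ratio of CPM (50 added) in anchor-positive over other nuclei for each of the 100 members, under drought (horizontal axis) and in controls (vertical axis), UMIs pooled over 2 libraries per treatment. Most points, 86 of 100, lie on the drought side of the dashed line of equal ratio, and these values chose the members.

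The members' UMIs were concentrated in a few of the anchor-positive nuclei. Members took 4.39% and 3.88% of all gene UMIs of anchor-positive nuclei in the drought libraries, against 1.70% and 2.48% in the control libraries. These UMIs chose the members, so the shares are a description. The median anchor-positive nucleus was far lower, at 0.445% and 0.706% in drought libraries against 0.348% and 0.465% in control libraries. In nuclei without the anchor the pooled share was 0.291% and 0.322% under drought and 0.287% and 0.286% in controls.

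The member share went up with the number of anchor UMIs in a nucleus. Its median was 0.224% in nuclei with no anchor UMI, 0.322% with 1, 5.13% with 2 to 4 and 7.32% with 5 or more. Nuclei with at least 3% of their UMIs from members are called member-rich. They made up 28 of the 30 nuclei with 5 or more anchor UMIs, 55 of the 75 with 2 or more, 16 of the 204 with exactly 1 and 34 of the 16671 with none. Most nuclei with 1 anchor UMI therefore had a member share close to that of nuclei without it. The same order was seen in each treatment, with medians of 0.316% under drought and 0.329% in controls at 1 anchor UMI, and of 5.17% under drought and 4.60% in controls at 2 to 4. The UMIs of all nuclei with the anchor chose the members, so a higher share there is partly built in and is a description only.

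**Figure D2:**
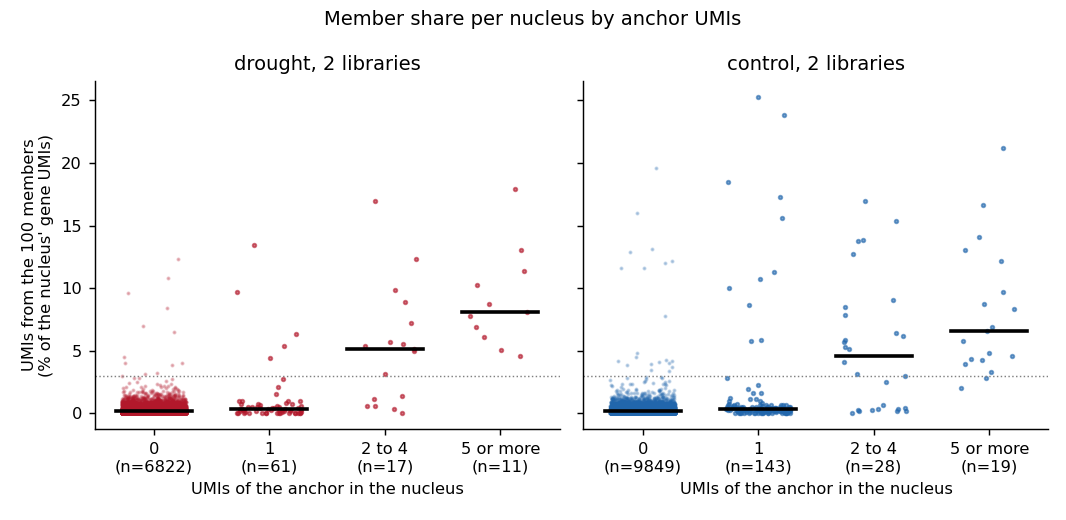
Percent of a nucleus' gene UMIs that came from the 100 members, by the number of anchor UMIs in the nucleus, for drought (left) and control (right); each point is a nucleus, the black bar is the median and the dotted line marks 3%. The medians stay near 0.3% at 1 anchor UMI and exceed 4% at 2 to 4 in both treatments. The UMIs of nuclei with the anchor chose the members.

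In all, 105 nuclei were member-rich, 14 and 26 in the drought libraries and 28 and 37 in the control libraries. They were 0.441% and 0.695% of nuclei under drought (95% Wilson intervals 0.263% to 0.740% and 0.475% to 1.02%) and 0.645% and 0.649% in controls (0.447% to 0.930% and 0.472% to 0.894%), so the intervals of all 4 libraries overlapped. They held 0.797% of all UMIs of nuclei and 19.2% of the members' UMIs. A median of 25 members, and from 7 to 88, were detected in a member-rich nucleus, against 1 in the others. Member-rich nuclei were picked by their member share, so both differences are partly built in and are a description. A UMI of any of the 6 other anchors was found in 9 of the 105 (8.57%), against 20.6% of the other nuclei. Members had to have a lower ratio for each of these 6 anchors, so this lower share is partly built in. The median depth of member-rich nuclei was 614 UMIs, against 498 in the others. With limits of 2% or 5% in place of 3%, 153 or 75 nuclei were member-rich.

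The members were also found together in nuclei that the rule had not counted as positive. Among the 16671 nuclei with no UMI of the anchor, each gene was given the log2 ratio of the share of the other members' UMIs in nuclei with the gene over nuclei without it. For the 91 members with at least 30 UMIs there, the median was 0.94, with a range from -0.05 to 2.89. For 21164 other genes the median was 0.02, and 95% of them were below 0.36. The ratio exceeded 1 for 41 members and for 0.624% of other genes. It lay above the 99th percentile of the other genes (0.82) for 51 members, and above the 95th for 75. Taken by library, over all 100 members rather than these 91, the members' median was 0.51 and 1.45 under drought and 0.90 and 0.93 in controls. These nuclei share libraries, and the rule used each gene's level in them as a denominator, so the values are a description.

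The members with the highest values were PtXaAlbH.10G200800 at 2.89, PtXaAlbH.11G010600 at 2.67 and PtXaAlbH.06G229600 at 2.48, named after their values were seen. The lowest were PtXaAlbH.11G048400 at -0.05 and PtXaAlbH.14G084700 at -0.03, close to the median of the other genes.

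**Figure D3:**
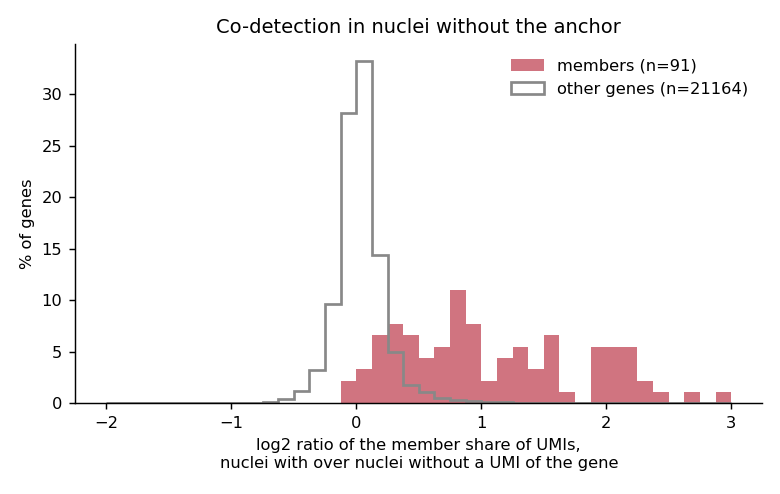
Distribution over genes of the log2 ratio of the member share of UMIs in nuclei with a UMI of the gene over nuclei without, in nuclei lacking the anchor (values beyond -2 or 3 drawn at the ends), for 91 members (filled) and 21164 other genes (line). Other genes centre on 0.02, and members spread from -0.05 to 2.89 around a median of 0.94.

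The members were not all high in the same member-rich nuclei. In the 65 member-rich control nuclei, the first principal component of the members' levels held 27.4% of the variance. By a correlation with it beyond 0.3 in size, 38 members formed set 1, 25 formed set 2 with the opposite sign, and 37 were in neither. Set 1 included the leading members PtXaAlbH.05G155600, PtXaAlbH.02G051200 and PtXaAlbH.14G144800, whereas PtXaAlbH.01G281400, PtXaAlbH.01G281200 and PtXaAlbH.17G051000 were in neither set.

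The 40 member-rich drought nuclei had no part in defining the sets. Their UMIs did enter the rule that chose the members, and they were picked by their member share. The split in them is therefore a description and no independent check. At least 80% of the set UMIs came from set 1 in 9 of these drought nuclei and from set 2 in 14, and 17 were mixed. In the control nuclei that defined the sets, the counts were 29, 21 and 15. The anchor was found with both sets. It was detected in 7 of 9 set 1 nuclei and 8 of 14 set 2 nuclei under drought, and in 16 of 29 and 14 of 21 in controls. Mixed nuclei, with the anchor in 12 of 17 under drought and 14 of 15 in controls, had median depths of 751 and 661 UMIs. Whether a mixed nucleus is 1 nucleus or a pair under 1 barcode was not tested.

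**Figure D4:**
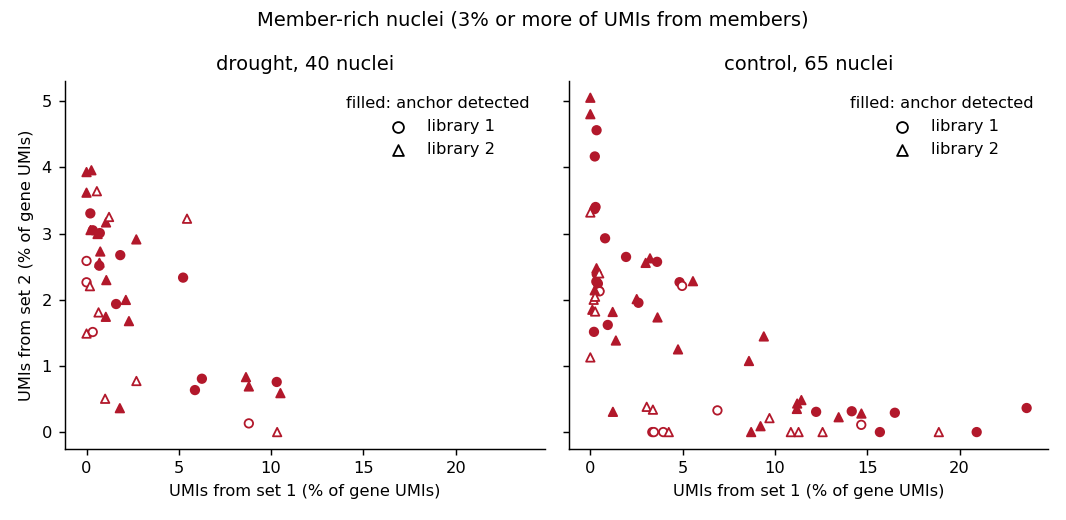
Percent of gene UMIs from set 1 (horizontal axis) and set 2 (vertical axis) in each of the 40 drought (left) and 65 control (right) member-rich nuclei, circles for library 1 and triangles for library 2, filled where the anchor was detected. Many nuclei lie along 1 of the axes in both treatments, 9 with set 1 and 14 with set 2 under drought by the 80% limit, and filled points occur along both axes. The nuclei were picked by their member share, and their UMIs entered the choice of the members.

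Many members had IDs close to each other. Of the 200 IDs directly before or after a member in the files' order of IDs, 24 (12%) were members too, against 0.314% of all IDs. Runs of members no more than 5 IDs apart numbered 15 and held 39 members, the largest being 5 members between PtXaAlbH.01G280900 and PtXaAlbH.01G281400, among them 2 of the 6 leading members. PtXaAlbH.06G227100, PtXaAlbH.06G227500 and PtXaAlbH.06G227600 were all in set 1, as were PtXaAlbH.06G228800, PtXaAlbH.06G229100 and PtXaAlbH.06G229600. The prefix 06 held 17% of members and 7.38% of all genes. How the authors' counting assigned reads of near-identical copies is not given in the sources used here, so values of neighbouring members may share reads and are uncertain.

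In bulk stems under drought, more members were lower than higher. The edgeR quasi-likelihood test (FDR below 0.05) called 43 of 100 lower, against 27.1% of all 26448 genes tested, and 12 higher, against 27.1% of all genes. The other 45 did not pass. The median log2 fold change was -0.30 over the members and 0.01 over all genes, with a range over members from -2.01 to 1.59. In bulk RNA, fewer cells of a kind and less RNA per cell cannot be told apart. Members took 0.299%, 0.340% and 0.301% of the counts under drought and 0.434%, 0.441% and 0.403% in controls, with every drought library below every control library. PtXaAlbH.01G185800 alone gave 15.3% of the members' counts. The CPM of 59 members was lower in every drought than in every control library (38.9% of all genes) and that of 12 was higher in every drought library (25.9% of all genes).

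The number of members called lower was 28 without control library 1, 27 without control library 2, 26 without drought library 1 and 27 without drought library 3, where 19.9% to 21.8% of all genes were called lower. Without drought library 2 it was 55, with 33.6% of all genes called lower. The number called higher fell to 7 without control library 3 (19.1% of all genes). With library size as the only scaling, the median of all genes was -0.12 and that of the members -0.43, and 9 members were called higher (21.9% of all genes) and 53 lower (32.4%).

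By set, 16 of 25 members of set 2 were lower and 3 higher, with a median log2 fold change of -0.73. In set 1, 9 of 38 were lower and 5 higher, with a median of -0.07. Of the 37 members in neither set, 18 were lower and 4 higher, with a median of -0.43. Without drought library 2, 17 members of set 2 were lower and 3 higher (median -0.83), 14 of set 1 lower and 6 higher (median -0.16), and 24 in neither set lower and 4 higher (median -0.50). The difference between the sets was not tested.

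The largest falls in bulk were those of PtXaAlbH.06G029300 and PtXaAlbH.17G058700. PtXaAlbH.06G029300 had 5.18, 14.6 and 5.22 CPM under drought against 40.9, 33.9 and 35.0 CPM in controls (log2 fold change -2.01, SE 0.41, edgeR adjusted p = 0.00626). Its drought library 2 lay between the other drought libraries and the controls, and without it the log2 fold change was -2.68. PtXaAlbH.17G058700, of set 2, had 38.0, 52.0 and 36.5 CPM under drought against 287, 95.7 and 118 CPM in controls (log2 fold change -1.86, SE 0.42, edgeR adjusted p = 0.00948). Control library 1 was far above the other controls, and without it the log2 fold change was -1.23. The groups did not overlap.

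The largest rises in bulk were those of PtXaAlbH.04G166400 and PtXaAlbH.06G227100. PtXaAlbH.04G166400, of set 2, had 153, 156 and 140 CPM under drought against 52.9, 56.6 and 52.7 CPM in controls (log2 fold change 1.59, SE 0.08, edgeR adjusted p = 0.000108). The spread within each treatment was small beside the difference. PtXaAlbH.06G227100, of set 1, had 21.6, 8.68 and 16.2 CPM under drought against 7.30, 6.72 and 6.20 CPM in controls (log2 fold change 1.33, SE 0.32, edgeR adjusted p = 0.0119). Drought library 2 was near the controls for this gene. Without control library 3 the edgeR adjusted p was 0.0513.

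The leading members changed little in bulk, apart from 1. PtXaAlbH.17G051000 fell, with 117, 159 and 126 CPM under drought against 245, 286 and 225 CPM in controls (log2 fold change -0.79, SE 0.14, edgeR adjusted p = 0.00408). PtXaAlbH.01G281400 had 282, 312 and 306 CPM under drought against 331, 394 and 321 CPM in controls (log2 fold change -0.09, SE 0.11, edgeR adjusted p = 0.516). PtXaAlbH.05G155600, PtXaAlbH.02G051200, PtXaAlbH.14G144800 and PtXaAlbH.01G281200 had log2 fold changes between -0.23 and 0.08, and none passed. Without drought library 2, PtXaAlbH.02G051200 passed as lower, with a log2 fold change of -0.29 (edgeR adjusted p = 0.0193), and with library size as the only scaling it was -0.36 (edgeR adjusted p = 0.0261). The sign for PtXaAlbH.05G155600 and PtXaAlbH.14G144800 turned under some of the alternatives, with no call.

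In nuclei, summed over all barcodes of a library, few members passed. These sums hold the UMIs that chose the members, so the nuclei values are not independent of the choice. The edgeR test called 6 of 100 higher under drought, against 3.63% of all 20768 genes tested, and 3 lower, against 5.21%, which are shares near those of all genes. The median log2 fold change was 0.16 over members and 0.01 over all genes. Members took 0.374% and 0.386% of the UMIs under drought and 0.339% and 0.335% in controls. The CPM of 40 members was higher in both drought than in both control libraries (29.5% of all genes), and that of 17 was lower (25.5% of all genes). The count of members called higher was 2 without control library 2 (2.8% of all genes), 1 without drought library 2 (1.58%) and 3 with DESeq2 (1.83%), also near the shares of all genes.

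PtXaAlbH.12G059200, of set 2, had 14.5 and 11.0 CPM in drought nuclei against 2.99 and 3.03 CPM in control nuclei, from 28 and 22 UMIs under drought and 13 and 11 UMIs in controls (log2 fold change 2.03, SE 0.45, edgeR adjusted p = 0.0243). PtXaAlbH.10G198400 had 13.5 and 19.6 CPM in drought nuclei against 6.44 and 4.13 CPM in control nuclei (log2 fold change 1.59, SE 0.42, edgeR adjusted p = 0.0457), and also rose in bulk, by 0.50 on the log2 scale (SE 0.11, edgeR adjusted p = 0.00875). PtXaAlbH.18G004300, of set 1, had 4.66 and 6.52 CPM in drought nuclei against 15.0 and 16.8 CPM in control nuclei (log2 fold change -1.53, SE 0.40, edgeR adjusted p = 0.0417). The groups did not overlap for any of these genes. Their calls were not stable. That of PtXaAlbH.18G004300 was lost without any 1 library (edgeR adjusted p = 0.0562 to 0.150), in barcodes with at least 200 genes (0.0902) and in DESeq2 (adjusted p = 0.142). That of PtXaAlbH.10G198400 was lost without control library 2, drought library 1 or drought library 2 (edgeR adjusted p = 0.166, 0.0555 and 0.206) and in DESeq2 (adjusted p = 0.110). That of PtXaAlbH.12G059200 was lost without control library 2, drought library 1 or drought library 2 (edgeR adjusted p = 0.0660, 0.102 and 0.0575) and in DESeq2 (adjusted p = 0.0574). All 3 were also lost after thinning to the shallowest library (edgeR adjusted p = 0.0754 for PtXaAlbH.18G004300, 0.0555 for PtXaAlbH.10G198400 and 0.0596 for PtXaAlbH.12G059200). PtXaAlbH.06G029300 had 61.1 and 59.7 CPM in drought nuclei against 124 and 114 CPM in control nuclei (log2 fold change -1.01, SE 0.19, edgeR adjusted p = 0.0135), lower as in bulk. Without drought library 2 its edgeR adjusted p was 0.0510.

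**Figure D5:**
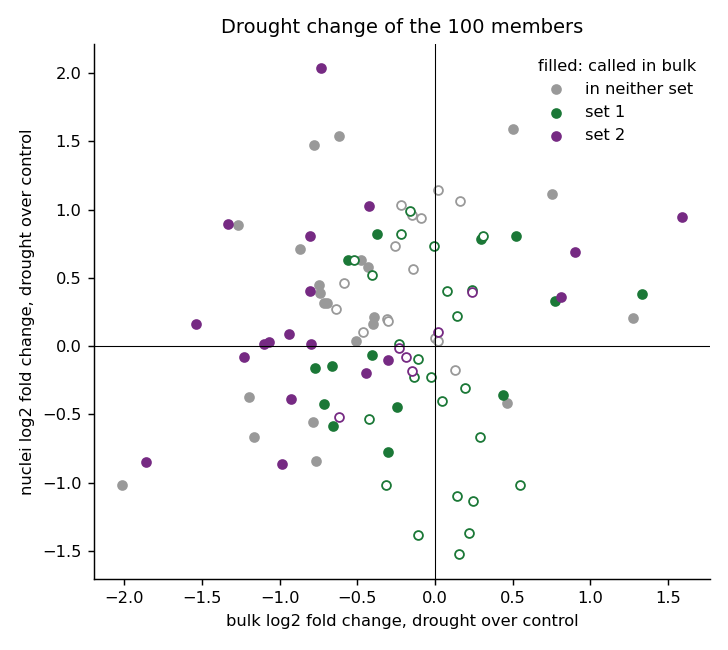
Log2 fold change of each member under drought over control in bulk stems (horizontal axis, 3 libraries each) and in nuclei (vertical axis, 2 libraries each), coloured by set and filled where called in bulk. Points lie mainly left of 0 in bulk (69 of 100) and above 0 in nuclei (61 of 100).

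Both assays called 5 members, 4 of them in the same direction. Of the 20588 genes tested in both, 6.79% were called in both, 94.6% of these in the same direction. Of the 43 members called lower in bulk, 25 (58.1%) had a positive and 18 a negative log2 fold change in nuclei. Of the 6090 genes called lower in bulk among those tested in both, 24% had a positive one. The difference between these shares was not tested. The nuclei sums hold the UMIs that chose the members, so a difference between the assays is not independent of the choice. A model of all 10 libraries tested the difference between the drought effects of the assays. It called 12 members with a more positive effect in nuclei, against 2.34% of all 27746 genes tested, and 3 with a more negative one, against 4.87%. Of the 12, 9 were also called lower in bulk. The median difference was 0.41 over members and -0.09 over all genes, and with library size as the only scaling it was 0.65 over members and 0.15 over all genes, with 20 members more positive (5.31% of all genes) and 0 more negative (2.95%, and 9 at an unadjusted p below 0.05 in edgeR). No plant is labelled as measured in both assays, and the internode used for bulk is not given in the labels, so assay and material cannot be told apart.

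These counts moved when single libraries were left out. Leaving out bulk drought library 2 gave 27 members more positive and 8 more negative, where 10.4% and 12.4% of all genes were called. Leaving out bulk drought library 1 or 3 gave 3 or 4 more positive, and leaving out bulk control library 1, 2 or 3 gave 4 each time, where 0.561% to 0.888% of all genes were called. Without nuclei control library 1 it was 3 (0.558% of all genes), and without nuclei drought library 2 it was 6 (1.54%). The count of more negative members was 0 without any other single bulk library, with 10 to 11 at an unadjusted p below 0.05 in edgeR. It was 2 without nuclei control library 2 and 1 without any other single nuclei library.

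PtXaAlbH.12G059200 had the largest difference. It was lower in bulk, with 4.70, 5.40 and 4.13 CPM under drought against 8.11, 9.30 and 8.39 CPM in controls (log2 fold change -0.73, SE 0.15, edgeR adjusted p = 0.00598), and higher in nuclei. The drought effect was 2.69 greater in nuclei on the log2 scale (SE 0.34, edgeR adjusted p = 0.00489). Its call held without any 1 library (edgeR adjusted p = 0.000276 to 0.0220). For PtXaAlbH.18G004300 the difference was -1.78 (SE 0.47, edgeR adjusted p = 0.0481), with bulk levels of 1.40, 1.07 and 0.884 CPM under drought and 0.998, 0.934 and 1.34 CPM in controls that overlapped. This call was lost without any 1 library other than bulk drought library 2 (edgeR adjusted p = 0.0638 to 0.129, against 0.0231 without that library).

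Within anchor-positive nuclei, 78 of the 100 members had enough UMIs to be tested. These UMIs also chose the members, so the counts are a description of the chosen genes. The shares over all genes are given for scale only, not as support for a drought effect. In edgeR, 4 of the 78 were higher under drought, against 0.857% of 1050 genes tested, and 0 were lower, against 1.14%. At an unadjusted p below 0.05 in edgeR, 28 were higher and 1 lower. For counts at an unadjusted p, here and elsewhere, the share over all genes was not computed, so they cannot be set against it. DESeq2 called 1 higher and 0 lower (0.014% and 0% of all genes). The median log2 fold change was 0.82 over the 78 and 0.01 over all genes tested. The number higher was 0 without control library 1 (0.299% of all genes, and 3 members at an unadjusted p below 0.05 in edgeR), 9 without control library 2 (1.85% of all genes) and 0 with library size as the only scaling (0.19%, and 28 members at that p). It was also 0 in nuclei with at least 2 anchor UMIs, where only 46 members and 100 genes were tested (0% of all genes called). There, 2 members were higher at an unadjusted p below 0.05 in edgeR. Without the nuclei that held another anchor it was 0 too, with 63 members and 455 genes tested (0.44% called) and 18 members at that p. Fewer members were tested in both settings, and whether the 0 calls mean a lost difference was not tested. The log2 fold change of PtXaAlbH.01G281100 was 2.16 in all anchor-positive nuclei and 1.36 with at least 2 anchor UMIs. Without nuclei that held another anchor it was 1.79. For PtXaAlbH.01G281400 these values were 2.03, 1.21 and 1.90.

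The members called were PtXaAlbH.01G281100, PtXaAlbH.01G281400, PtXaAlbH.01G281200 and PtXaAlbH.05G042500, of which 3 are in the same run of IDs. PtXaAlbH.01G281100 had 1628 and 2158 CPM in anchor-positive drought nuclei against 221 and 616 CPM in anchor-positive control nuclei. The levels of PtXaAlbH.01G281400 are given above. PtXaAlbH.05G042500 had 784 and 588 CPM in anchor-positive drought nuclei against 150 and 197 CPM in anchor-positive control nuclei. For none of these did the groups overlap. Since these UMIs chose the members, the calls are no evidence for a single gene, and no p is given for one. With edgeR, no gene of the 4 passed without control library 1 or with library size as the only scaling. The share of anchor-positive nuclei that were member-rich was 27.0% and 32.7% under drought and 21.0% and 25.6% in controls, and the anchor-positive nuclei of drought libraries were the shallower ones, by the medians given above. The part of these differences in the members' values was not tested.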

How the data were processed

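The authors deposited raw read counts per gene for 6 bulk libraries and raw UMI counts per feature and barcode for 4 nuclei libraries, as the values and the file headers show. The submitters' processing notes name HISAT2, with no role. Not given in the sources used here are the genome build, the counting tool and its use of strand. Rows naming no gene held 0.0574% to 0.478% of UMIs and were left out. Each library is 1 replicate, and nuclei were never replicates. Labels gave the treatment of all 10 libraries.

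Counts were tested with edgeR 4.0.16 (R 4.3.3) (quasi-likelihood F test, TMM scaling, filterByExpr) at a Benjamini-Hochberg false discovery rate of 0.05. The SE was taken as the size of the log2 fold change over √F. Nuclei UMIs were summed per library over every deposited barcode, and for anchor-positive nuclei over those nuclei, without the anchor. The assay difference is a contrast in 1 model with 1 spread per gene. DESeq2 1.42.0 was an alternative. Doublets were not removed. The scripts were tested on simulated data.

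The members, lists and tests were chosen with earlier results of these data known. Named genes are the 6 with the highest ratio, those at the threshold, and up to 2 rising and 2 falling members per comparison that were called with groups not overlapping. PtXaAlbH.01G185800, PtXaAlbH.05G042500, PtXaAlbH.01G281200 and the genes named for ID runs or co-detection were chosen after their values were seen.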

Additional observations from a re-analysis of the deposited data

Results flagged for a closer look

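The drought effects in nuclei and in bulk differed by a test of the difference itself (edgeR, FDR below 0.05). This was so for 12 members with a more positive effect in nuclei, against 2.34% of all genes, and for 3 with a more negative one, against 4.87%, a share above that of the members. The 3 were PtXaAlbH.18G004300, PtXaAlbH.08G062100 and PtXaAlbH.01G307100, named after their values were seen. PtXaAlbH.12G059200 differed by 2.69 on the log2 scale and PtXaAlbH.18G004300 by -1.78. The nuclei sums hold the UMIs that chose the members. For PtXaAlbH.01G281400, 88 of 150 and 135 of 214 UMIs of the drought libraries came from anchor-positive nuclei. In the control libraries 98 of 208 and 72 of 170 did. For PtXaAlbH.01G281100 these were 54 of 85 and 77 of 112 under drought, and 34 of 89 and 50 of 100 in controls. PtXaAlbH.01G281100 differed by 1.16 (SE 0.24, edgeR adjusted p = 0.0219), with 44.0 and 56.2 CPM in drought nuclei against 20.5 and 27.5 CPM in control nuclei, and 170, 193 and 169 CPM in drought stems against 214, 253 and 209 CPM in control stems. This call was lost without any of 6 of the libraries taken singly (edgeR adjusted p = 0.0504 to 0.0831). In bulk alone, the log2 fold change of PtXaAlbH.01G281100 was -0.22 (edgeR adjusted p = 0.123). Without bulk drought library 2 it passed as lower, at -0.28 (edgeR adjusted p = 0.0321). PtXaAlbH.01G281400 differed by 0.93 (SE 0.23, edgeR adjusted p = 0.0399), with 77.7 and 107 CPM in drought nuclei against 47.9 and 46.8 CPM in control nuclei. It was lost without any 1 library other than bulk drought library 2 or nuclei drought library 1 (edgeR adjusted p = 0.0741 to 0.103).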

How the results depend on the processing

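Membership kept 82 to 97 of the 100 genes when 20 or 100 CPM were added, with nuclei of 300 or more genes, or with a minimum of 15 UMIs. A minimum of 60 UMIs kept 42, by construction, and leaving out a library kept 56 to 78. The difference in the share of anchor-positive nuclei was -0.66 percentage points, ran from -1.02 to -0.301 without 1 library, and was 0.0156 after thinning. Without 1 library, bulk counts ran from 7 to 13 higher (19.1% to 32.8% of all genes) and 26 to 55 lower (19.9% to 33.6%). Nuclei counts ran from 1 to 7 higher and 2 to 3 lower. Anchor-positive counts ran from 0 to 9 higher, and the assay difference from 3 to 27 more positive and 0 to 8 more negative. In the assay test without 1 bulk library, 0.561% to 10.4% of all genes were called more positive and 1.7% to 12.4% more negative. Where an arm kept 1 library, it was assumed to vary like the others. The nuclei and anchor-positive ranges come only from such fits. They cannot show whether calls were gained or lost, because the spread of that arm was not measured.

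In nuclei, DESeq2 called 3 higher (1.83% of all genes), and without a filter on low counts 5 were lower (5.91%). In anchor-positive nuclei, DESeq2 called 1 higher (0.014% of all genes) and no filter 2 (0.0467%). Library size alone gave 0 (0.19%, and 28 members at an unadjusted p below 0.05 in edgeR). Nuclei with 2 or more anchor UMIs gave 0 (0%) and nuclei without other anchors 0 (0.44%). The assay difference with library size alone gave 20 more positive (5.31% of all genes) and 0 more negative (2.95%).

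Same-numbered libraries did not deviate together, with correlations of -0.0093 to 0.0303 in bulk, -0.10 in nuclei and -0.03 in anchor-positive nuclei, so replicate numbers were not taken as pairs. With a replicate block, edgeR called 10 higher and 38 lower in bulk (23.6% and 24.7% of all genes). In nuclei it called 5 and 2 (3.23% and 4.82%). In anchor-positive nuclei it called 0 and 0 (0.19% and 0%), with 25 and 0 at an unadjusted p below 0.05. For the assay difference it called 2 more positive and 0 more negative (0.425% and 1.13%), with 31 and 11 at that p. A crossed replicate block in nuclei called 10 higher and 5 lower (5.89% and 7.55% of all genes). It was added after seeing the data, as was the setting of 2 or more anchor UMIs. Of 246 alternatives for 23 results on single named genes, 173 left the result as it was, whether called or not called. Another 64 lost a call, 2 gained one and 7 turned direction, none of the 7 called. The results with no call to lose were those in bulk of PtXaAlbH.01G281400, PtXaAlbH.05G155600, PtXaAlbH.02G051200, PtXaAlbH.14G144800, PtXaAlbH.01G281200 and PtXaAlbH.18G004300. In bulk, PtXaAlbH.05G155600 was -0.046 with library size alone, and ran from -0.043 to 0.17 without 1 library. PtXaAlbH.14G144800 ran from -0.20 to 0.080 and PtXaAlbH.18G004300 from -0.041 to 0.34 without 1 library. The causes were not tested. Depth limits the nuclei, where members had a median of 52.5 UMIs in anchor-positive nuclei.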
